A study of Mus musculus with 2 samples.

Results

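Histone genes encode the proteins that package DNA, and 83 of the 31053 genes in the deposited table carry a histone name. Members were taken by symbol: 67 replication-dependent genes, whose names start with Hist1h, Hist2h, Hist3h or Hist4h, 15 replacement genes, whose names start with H1f, H2af or H3f, and the antisense transcript H3f3aos, which the name rule takes in and which was kept out of all sums. They were described in 14795 single cells from mouse bone marrow of strain C57BL/6, kept by sorting for Lineage-, c-Kit+ and Sca1- progenitors (LKS-). The Control library pooled marrow of 2 mice, a Runx1f/f mouse and a Runx1f/- mouse that carried a germline Runx1 mutation on a single allele. The other library is labelled Runx1 KO. For that library the sources used here give neither the deleting Cre nor the number of mice, and no age is given for either.

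Core histones H2A, H2B, H3 and H4 form the nucleosome, and linker histone H1 binds the DNA between nucleosomes. Replication-dependent genes lie in clusters, supply new chromatin in S phase, and mostly make messages that end in a conserved stem-loop in place of a poly(A) tail. Replacement genes are transcribed through the cell cycle, make polyadenylated messages, and encode variants with their own roles, such as H3.3 at active genes, H2A.Z at promoters and H1.0 in differentiating cells.

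The Control library held 6906 cells and 162278272 unique molecular identifiers (UMIs, each counting a captured message), with a median of 21593.5 per cell. The library labelled Runx1 KO held 7889 cells and 145590840 UMIs, with a median of 16092 per cell. Levels are CPM, summed UMIs of a gene scaled to the same total in every group of cells; they count 3′ ends and are not divided by gene length. With 1 library per genotype no test between genotypes was possible, and all 95% intervals cover counting error only, not the spread between mice. Runx1 itself was at 143 CPM in Control and 361 CPM in the library labelled Runx1 KO; 3′ UMIs do not check a deletion, so the label was not checked by them. The gate gene Kit was at 114 and 100 CPM, and Ly6a, which encodes Sca1, at 1.63 and 2.39 CPM. The libraries shared 13 barcode sequences.

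The 3′ ends matter here because the 3′ kit captures poly(A) RNA. The histone 3′ stem-loop (a 6-base stem around a 4-base loop, searched on the transcribed strand after the stop codon of GENCODE M21 transcripts on GRCm38) was found in 46 of the 54 replication-dependent genes with an annotated 3′ end beyond the stop codon (85.2%), in 1 of 12 replacement genes, H2afx, and in 21 of 20971 other protein-coding genes (0.100%). Of the 46, 20 gene models ended within 50 bases of the stem-loop and 26 ran on further, 14 of them with an AATAAA signal after it. The stretches below are those of the more abundant members, with both arms of the stem in capitals, to show how alike the ends are.
Hist1h2ap: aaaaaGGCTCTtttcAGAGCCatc
Hist1h2ae: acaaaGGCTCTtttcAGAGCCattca
Hist1h1c: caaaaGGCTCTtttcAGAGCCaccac
Hist1h1e: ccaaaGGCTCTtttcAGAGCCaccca
Hist1h4i: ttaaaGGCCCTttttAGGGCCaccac
H2afx: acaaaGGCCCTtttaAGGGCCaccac
The Hist1h2ap model stopped 3 bases after the stem-loop, the Hist1h2ae model 151 bases after it, Hist1h4i 330, H2afx 822, Hist1h1c 840 and Hist1h1e 1153 bases after it. Hist1h2bc had no stem-loop in its model and did have an AATAAA signal, and Hist1h1b had no annotated sequence after the stop codon. The levels below therefore describe captured messages of each gene and need not follow its total message.

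The replication-dependent genes together were at 1117 CPM in Control and 873 CPM in the library labelled Runx1 KO, a ratio of 0.781 (95% interval 0.776 to 0.787). The replacement genes together were at 8074 and 8163 CPM, a ratio of 1.01; its log2 ratio, 0.02, was -0.006 with mitochondrial, ribosomal protein and globin genes left out of the total and 0 without the 5% deepest cells, so it has no settled direction. Within the replication-dependent group the H2A genes were at 510 and 301 CPM (ratio 0.590), the linker H1 genes at 295 and 279 CPM (0.946), the H4 genes at 115 and 101 CPM (0.879), the H3 genes at 53.7 and 47.3 CPM (0.880) and the H2B genes at 143 and 145 CPM (1.01). The lower sum was thus mostly a lower H2A sum. Among replacement genes the linker pair H1f0 and H1fx was at 79.6 and 157 CPM (1.97), the H2A variants at 4716 and 4075 CPM (0.864) and the H3.3 pair H3f3a and H3f3b at 3279 and 3930 CPM (1.20). The libraries differed in their mix of deposited cell classes, which the authors named by a gene: the Pf4 class had 222 Control cells and 1782 cells labelled Runx1 KO, Ly86 had 1326 and 553, and CD34 had 1076 and 679. In sums over all cells, more cells of a class and more message per cell cannot be told apart, so each class is described in turn further on.

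A member counted as measured at 30 CPM or more in the higher library and 100 UMIs or more over both; the log2 ratio is taken after adding 10 CPM to each side, which understates differences of low genes. Of 67 replication-dependent members 7 were measured, and 2 of them, Hist1h2ap and Hist1h2ae, were at least 1.5-fold lower in the library labelled Runx1 KO, while 0 were 1.5-fold higher. Of 15 replacement members 9 were measured, of which H1f0 was at least 1.5-fold higher and H2afy at least 1.5-fold lower. Over all 4600 measured genes 4.28% were at least 1.5-fold higher and 1.65% at least 1.5-fold lower; their median log2 ratio was 0.00. The median was -0.11 for the 7 replication-dependent and 0.08 for the 9 replacement members. Among the 60 replication-dependent members with 100 UMIs or more, 44 were lower and 16 higher, with a median ratio of 0.868 and a range from 0.536 to 1.29; the interval lay below 1 for 33 and above 1 for 6. Of all 12787 genes with that many UMIs 49% were lower and 51% higher, with a median ratio of 1.00, and the interval lay below 1 for 35.1% and above 1 for 37.6%. Many members are near-identical copies, so their directions are not separate measurements. Among replacement members, 5 genes known from germ cells (H1foo, H1fnt, H2afb1, H2afb2 and H2afb3) had 0 UMIs, as had Hist1h2aa, Hist1h2ba and Hist2h2aa2. A count of 0 allows up to 3 UMIs in a library, except that all 90-base windows of Hist2h2aa2 also occur in other histone transcripts, so its 0 sets no limit on its level.

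**Figure D1:**
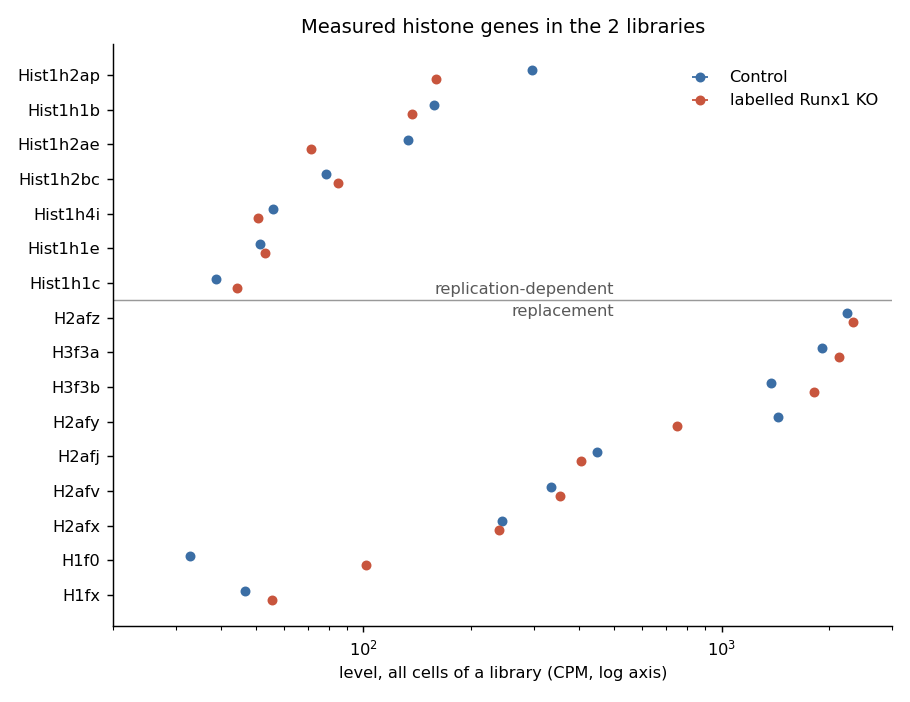
Level of each measured histone gene over all cells of a library, in CPM on a log axis, with 95% counting intervals mostly smaller than the points; blue is Control and red the library labelled Runx1 KO. The points stand well apart for Hist1h2ap (295 and 159 CPM), Hist1h2ae (133 and 71.4 CPM), H2afy (1440 and 751 CPM) and H1f0 (32.8 and 102 CPM).

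Among the replication-dependent linker histones, Hist1h1b, which encodes H1.5, was at 158 CPM in Control and 137 CPM in the library labelled Runx1 KO (ratio 0.868, 0.852 to 0.884). Hist1h1e (H1.4) was at 51.4 and 53.2 CPM (1.04, 1.00 to 1.07). Hist1h1c (H1.2) was at 38.9 and 44.3 CPM (1.14, 1.10 to 1.18). These 3 measured H1 genes all stayed within 1.5-fold, with Hist1h1b alone lower. Below the level, Hist1h1d (H1.3) was at 27.5 and 27.6 CPM and Hist1h1a (H1.1) at 19.1 and 16.7 CPM, while the testis gene Hist1h1t had 7 and 5 UMIs.

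Hist1h1b differed most in the Pf4 class, whose name is a platelet chemokine gene, with 200 CPM in Control and 105 CPM in the library labelled Runx1 KO (0.522, 0.483 to 0.564). It was at 168 and 133 CPM in Ly86 (0.794), at 129 and 105 CPM in CD34 (0.814), at 86.2 and 85.2 CPM in Gstm1/CD63 (0.989), at 290 and 286 CPM in Hba-a2 (0.986) and at 162 and 169 CPM in Car1 (1.04). The interval held 1 in Gstm1/CD63 and Hba-a2, so the lower Hist1h1b was found in 3 of the 6 compared classes. Hist1h1e was lower in Pf4 (76.2 and 53.0 CPM, 0.695) and Ly86 (47.7 and 43.5 CPM, 0.911) and higher in Gstm1/CD63 (26.6 and 35.5 CPM, 1.33), Hba-a2 (60.5 and 74.5 CPM, 1.23) and Car1 (62.4 and 65.8 CPM, 1.05), and its interval in CD34 (47.6 and 50.4 CPM) held 1. Over all cells its log2 ratio of 0.04 was -0.01 after thinning, so that direction turned.

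The replacement linker gene H1f0, which encodes H1.0, was at 32.8 CPM in Control and 102 CPM in the library labelled Runx1 KO (ratio 3.10, 3.00 to 3.20; log2 ratio 1.38). It is a single-exon gene at chr15:79028450-79030504, plus strand. H1f0 was higher in 6 of 6 compared classes, with every interval above 1. The values were 44.8 and 119 CPM in Car1 (2.67, 2.53 to 2.81), 32.3 and 87.0 CPM in CD34 (2.70, 2.45 to 2.97) and 19.7 and 41.8 CPM in Ly86 (2.12, 1.90 to 2.37). They were 19.7 and 40.3 CPM in Gstm1/CD63 (2.05, 1.80 to 2.33), 104 and 202 CPM in Pf4 (1.94, 1.76 to 2.14) and 27.4 and 44.0 CPM in Hba-a2 (1.60, 1.40 to 1.84). Pf4 was the highest of the 6 classes in both libraries, and the ratio over all cells exceeded that in each of the 6. With the 6 classes weighted equally H1f0 was at 41.3 and 89.1 CPM, a ratio of 2.16.

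H1f0 was also seen in more cells. After each cell was thinned to 5000 UMIs, leaving out 465 Control cells and 346 others that were shallower, 14.8% of Control cells (14.0% to 15.7%) and 33.7% of cells labelled Runx1 KO (32.6% to 34.8%) had a UMI of H1f0; the unthinned shares were 36.6% and 58.6%. The thinned shares were 34.6% and 53.2% in Pf4, 19.8% and 35.7% in Car1, and 14.4% and 28.3% in CD34. In the late neutrophil class Ltf, which had the lowest thinned shares of H1f0, they were 7.32% of 41 cells and 5.13% of 156 cells. Their intervals were 1.54% to 19.9% and 2.24% to 9.85%. The shares in Pf4, Car1 and CD34 were higher in both libraries, but in Control the Ltf interval held those of Car1 and CD34. In Ly86 and Gstm1/CD63 the Control shares, 8.26% and 7.74%, were close to that of Ltf, and those labelled Runx1 KO were 14.2% and 17.3%. No class is known to lack histone messages, so free RNA could not be gauged from a class without them. Megakaryocyte markers (6 of 6 found), whose genes should be low outside Pf4, summed to 256 and 645 CPM in Car1, 118 and 499 in CD34, 40.3 and 182 in Gstm1/CD63, 22.9 and 113 in Ly86 and 9.27 and 124 in Hba-a2, against 6018 and 6017 CPM in Pf4. They were higher in the library labelled Runx1 KO in these 5 classes, as H1f0 was, and their part in the H1f0 difference was not tested.

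H1fx, which encodes the other ubiquitous replacement linker H1.10, was at 46.9 and 55.7 CPM over all cells (ratio 1.19, 1.15 to 1.23). Within classes it went the other way in 5 of 6. It was at 156 and 119 CPM in Pf4 (0.759), 29.7 and 17.0 CPM in Ly86 (0.573), 35.8 and 19.3 CPM in Gstm1/CD63 (0.539), 66.0 and 53.7 CPM in CD34 (0.814), 8.44 and 6.79 CPM in Hba-a2 (0.805, interval holding 1) and 60.9 and 66.7 CPM in Car1 (1.10). With the classes weighted equally H1fx was at 59.5 and 47.0 CPM, a ratio of 0.790, so its direction over all cells turned with the class weights.

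The H2A genes held the largest replication-dependent difference. Hist1h2ap was at 295 CPM in Control and 159 CPM in the library labelled Runx1 KO (ratio 0.539, 0.531 to 0.548), and Hist1h2ae at 133 and 71.4 CPM (0.536, 0.523 to 0.549). Both encode canonical H2A and lie in the large histone cluster of chromosome 13, on the minus strand, as single-exon genes at chr13:21833026-21833507 and chr13:23570517-23571220. Together they were at 429 and 231 CPM (0.538). Without the pair, the other 65 members summed to 688 and 642 CPM, a ratio of 0.933 (0.925 to 0.941).

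Upstream sequence of the pair is shown because both were lower in every compared class. It is the RefSeq GRCm38.p6 promoter window, minus strand, cut to the bases before the gene start that lie in no annotated exon, with matches to CCAAT or TATAAA on either strand in capitals: chr13:21833508-21833725 for Hist1h2ap and chr13:23571221-23571395 for Hist1h2ae.
Hist1h2ap: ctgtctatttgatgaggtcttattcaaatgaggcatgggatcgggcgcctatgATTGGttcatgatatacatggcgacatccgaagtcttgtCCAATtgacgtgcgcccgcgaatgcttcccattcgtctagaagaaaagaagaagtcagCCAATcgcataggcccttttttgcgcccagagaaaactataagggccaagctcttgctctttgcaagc
Hist1h2ae: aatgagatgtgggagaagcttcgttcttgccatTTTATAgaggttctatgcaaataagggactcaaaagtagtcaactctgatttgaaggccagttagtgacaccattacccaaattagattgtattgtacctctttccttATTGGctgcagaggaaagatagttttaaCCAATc
The stretches held 3 and 2 CCAAT matches and 0 and 1 TATAAA matches. The TATAAA match lies on the plus strand, near the far end of the Hist1h2ae stretch. Hist1h2bg, a plus-strand gene, starts directly beyond that end, at chr13:23571396, so the stretch lies upstream of both genes. The Hist1h2ap stretch likewise lies upstream of a plus-strand gene, Hist1h2br, which starts at chr13:21833743. Over whole RefSeq windows of 300 bases, CCAAT was present in 85.5% of 62 matched replication-dependent genes, 71.4% of 14 replacement genes and 37.9% of 27025 genes. TATAAA was present in 56.5%, 7.14% and 14.2%. TGTGGT, a core motif that RUNX factors bind, was present in 9.68%, 7.14% and 16.9%, and was in neither stretch above. AAACACA, a box described in H1 promoters, was present in 14.5%, 7.14% and 7.14%. Both strands were searched for all 4 motifs, neighbouring matches can overlap, and a match is a description of letters only.

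Hist1h2ap was lower in 6 of 6 compared classes. The values were 359 and 131 CPM in Pf4 (0.366, 0.345 to 0.389), 335 and 161 CPM in Ly86 (0.481, 0.460 to 0.503), 270 and 131 CPM in CD34 (0.487, 0.460 to 0.515), 441 and 271 CPM in Hba-a2 (0.613, 0.587 to 0.641), 190 and 122 CPM in Gstm1/CD63 (0.641, 0.607 to 0.676) and 287 and 184 CPM in Car1 (0.642, 0.625 to 0.660). Hist1h2ae was lower in 6 of 6 as well, with 158 and 58.9 CPM in Pf4 (0.372), 122 and 53.8 CPM in CD34 (0.440), 144 and 74.0 CPM in Ly86 (0.515), 71.7 and 43.8 CPM in Gstm1/CD63 (0.610), 139 and 87.5 CPM in Car1 (0.631) and 204 and 134 CPM in Hba-a2 (0.657). Every interval lay below 1 for both genes. The share of cells with a UMI of Hist1h2ap at 5000 UMIs was 36.5% (35.4% to 37.7%) in Control and 25.2% (24.3% to 26.2%) in the library labelled Runx1 KO, and 56.9% and 37.1% unthinned. In Pf4 it was 40.5% (33.7% to 47.5%) and 18.5% (16.7% to 20.4%).

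The other 16 replication-dependent H2A genes were together at 81.5 and 70.3 CPM (ratio 0.862, 0.840 to 0.885). Of the 15 H2A members with at least 100 UMIs, Hist1h2ap and Hist1h2ae among them, 11 were lower and 4 higher. Of all genes with that many UMIs 49% were lower and 51% higher. Hist1h2ac was at 22.4 and 19.2 CPM (0.856), Hist1h2ab at 11.3 and 8.16 CPM (0.725), Hist2h2aa1 at 6.37 and 4.22 CPM (0.663) and Hist1h2ai at 1.07 and 0.639 CPM (0.596). Hist2h2ac was at 13.1 and 10.5 CPM (0.807), and Hist2h2ab, Hist1h2ad, Hist1h2ag and Hist1h2ao, each under 2 CPM, were lower too. Hist3h2a was at 13.4 and 14.4 CPM (1.08), and Hist1h2ak, Hist1h2an and Hist1h2af were the other members with a higher value, by ratios of 1.01 to 1.07. Hist1h2ah had 42 and 27 UMIs. H2A copies are close to identical: 92.4% of the 90-base windows of the Hist1h2ap transcript and 31.9% of those of Hist1h2ae occur exactly in another histone transcript. No source used here says how reads matching several genes were treated. The split of UMIs among H2A copies is therefore uncertain, and Hist1h2ao, with 92.8% of its windows shared, had 68 and 38 UMIs.

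The H2B genes were alike in the libraries as a sum. The measured member Hist1h2bc was at 78.8 and 84.7 CPM (1.07, 1.05 to 1.10). It ranged over the 6 classes from a ratio of 0.921 in Gstm1/CD63 (70.6 and 65.0 CPM) to 1.11 in Ly86 (83.0 and 92.0 CPM). It was at 117 and 123 CPM in Pf4, 102 and 96.5 CPM in CD34, 63.2 and 66.6 CPM in Car1 and 54.7 and 50.8 CPM in Hba-a2. Among the 16 H2B members with 100 UMIs 10 were lower and 6 higher, with a median ratio of 0.988, beside 49% and 51% of all such genes. Hist1h2be was at 11.3 and 11.2 CPM, Hist1h2bj at 10.4 and 9.38 CPM, Hist1h2bm at 6.26 and 6.29 CPM and Hist1h2br at 3.75 and 2.80 CPM. The others with a lower value were Hist1h2bl, Hist1h2bn, Hist1h2bp, Hist1h2bh, Hist1h2bg, Hist1h2bf and Hist1h2bb, of which Hist1h2bg had the lowest ratio (3.81 and 2.76 CPM, 0.724). Those with a higher value were Hist2h2be, Hist2h2bb, Hist3h2ba and Hist1h2bk, of which Hist2h2be had the highest ratio (3.36 and 3.91 CPM, 1.16). Hist1h2bq had 1 and 0 UMIs, but 95.1% of its 90-base windows occur in other histone transcripts, so its level is uncertain.

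No replication-dependent H3 gene reached the level of a measured gene. Of the 11 with 100 UMIs 9 were lower and 2 higher, with a median ratio of 0.853. Hist1h3d was at 13.2 and 11.2 CPM (0.851), Hist1h3e at 10.2 and 8.83 CPM (0.861) and Hist1h3c at 8.29 and 7.41 CPM (0.894). Hist2h3b had the lowest ratio (1.54 and 1.09 CPM, 0.704), and Hist1h3b, Hist1h3f, Hist1h3g, Hist2h3c1 and Hist2h3c2 were lower as well. The higher values were those of Hist1h3i (3.44 and 3.83 CPM, 1.11) and Hist1h3a (7.28 and 7.29 CPM), and Hist1h3h had 25 UMIs in each library. Of the 13 H4 genes 12 were lower and 1, Hist4h4, was higher at 4.75 and 6.13 CPM (1.29). Beside these H3 and H4 counts, 49% of all genes with 100 UMIs or more were lower and 51% higher. Near-identical copies are not separate measurements. The measured H4 gene Hist1h4i was at 55.8 and 50.9 CPM (0.912, 0.885 to 0.941), and its class ratios ran from 0.861 in Pf4 to 1.01 in Car1. Hist1h4d was at 28.3 and 24.4 CPM over all cells and at 43.2 and 23.6 CPM in Pf4 (0.545). Hist1h4h had a ratio of 0.710 and Hist1h4c was at 5.97 and 4.44 CPM (0.744). Hist1h4b had the lowest H4 ratio (0.869 and 0.481 CPM, 0.553), near those of Hist1h4m (0.564) and Hist1h4a (0.587), and Hist2h4, Hist1h4j, Hist1h4k, Hist1h4n and Hist1h4f lay between 0.740 and 0.981. Near-identical copies make the split among H3 and among H4 genes uncertain too.

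Among replacement H2A variants, H2afz, which encodes H2A.Z, was at 2246 and 2326 CPM (1.04). H2afv, the second H2A.Z gene, was at 334 and 353 CPM (1.06), H2afj (H2A.J) at 449 and 405 CPM (0.902) and H2afx, whose protein marks DNA breaks when phosphorylated, at 244 and 239 CPM (0.978). These 4 stayed within 1.5-fold over all cells. Within classes H2afx was lower in Pf4 (303 and 215 CPM, 0.709), Ly86 (271 and 224 CPM, 0.825) and CD34 (252 and 230 CPM, 0.913) and higher in Car1 (250 and 293 CPM, 1.17) and Hba-a2 (177 and 233 CPM, 1.32), with an interval holding 1 in Gstm1/CD63. H2afv was at 310 and 382 CPM in Car1 (1.23) and 257 and 334 CPM in Hba-a2 (1.30), with ratios between 0.945 and 1.00 in the other 4 classes. H2afz was at 1999 and 2296 CPM in Car1 (1.15) and 2521 and 2252 CPM in Pf4 (0.893), and in Ly86 (2264 and 2363 CPM, 1.04), CD34 (2165 and 2165 CPM), Gstm1/CD63 (2426 and 2306 CPM) and Hba-a2 (2863 and 2779 CPM, 0.971) the libraries were closer. H2afj was lower in 6 of 6 classes by small amounts, from 0.915 in Gstm1/CD63 to 0.981 in Hba-a2, with 3 intervals below 1.

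H2afy encodes macroH2A1, a variant with a large extra domain that is linked to repressed chromatin. It is a gene of up to 9 exons at chr13:56073619-56136361, minus strand. H2afy was at 1440 CPM in Control and 751 CPM in the library labelled Runx1 KO (ratio 0.521, 0.518 to 0.525; log2 ratio -0.93). In both libraries it was higher in Ly86, CD34 and Gstm1/CD63 than in Car1, Pf4 and Hba-a2, so the class mix bears on that value: with classes weighted equally it was at 1258 and 868 CPM, a ratio of 0.690, and a log2 ratio of -0.53 that is no longer past 1.5-fold. Within classes it was at 2364 and 1248 CPM in CD34 (0.528, 0.518 to 0.538), 2612 and 1782 CPM in Ly86 (0.682, 0.673 to 0.692) and 1412 and 1118 CPM in Gstm1/CD63 (0.792, 0.778 to 0.807). It was at 228 and 190 CPM in Hba-a2 (0.833, 0.788 to 0.881), 468 and 413 CPM in Pf4 (0.884, 0.843 to 0.927) and 467 and 456 CPM in Car1 (0.975, 0.956 to 0.993). It was thus lower in 6 of 6 classes, by the most in CD34 and by very little in Car1. The related gene H2afy2 (macroH2A2) was at 2.70 and 2.34 CPM.

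H3f3a and H3f3b encode the same protein, H3.3. H3f3b was at 1374 CPM in Control and 1808 CPM in the library labelled Runx1 KO (1.32, 1.31 to 1.32), and was higher in 6 of 6 classes, with every interval above 1. The values were 1714 and 2552 CPM in Pf4 (1.49), 1384 and 1846 CPM in Car1 (1.33), 1399 and 1682 CPM in CD34 (1.20), 1499 and 1758 CPM in Hba-a2 (1.17), 1316 and 1502 CPM in Ly86 (1.14) and 1211 and 1315 CPM in Gstm1/CD63 (1.09). H3f3a was at 1904 and 2122 CPM (1.11), with ratios from 0.966 in Ly86 (2042 and 1972 CPM) to 1.27 in Pf4 (2135 and 2706 CPM). It was at 1808 and 2111 CPM in Car1, 2054 and 2228 CPM in CD34, 1716 and 1736 CPM in Gstm1/CD63 and 1733 and 1922 CPM in Hba-a2. Of the 6 classes, both genes were highest in Pf4 in each library, the class in which the ratio was also highest. The antisense transcript H3f3aos had 170 and 199 UMIs over all cells; its gene model, on the opposite strand, overlaps that of H3f3a only where both begin.

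**Figure D2:**
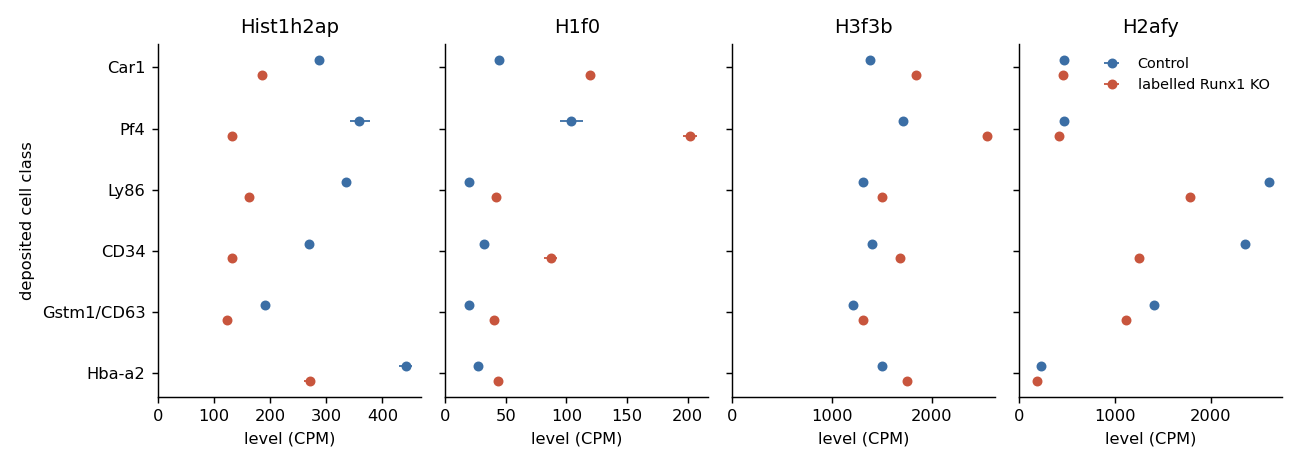
Level in CPM of 4 histone genes in the 6 compared classes, each axis starting at 0, with 95% counting intervals; blue is Control and red the library labelled Runx1 KO. Hist1h2ap and H2afy are lower, and H1f0 and H3f3b higher, in all 6 classes in the library labelled Runx1 KO, with H2afy almost equal in Car1 (467 and 456 CPM).

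Taking the classes in turn, the replication-dependent sum was lower in the library labelled Runx1 KO in 6 of 6. It was at 1381 and 826 CPM in Pf4 (ratio 0.598, 0.581 to 0.615), 1173 and 824 CPM in Ly86 (0.702, 0.688 to 0.717), 1079 and 835 CPM in CD34 (0.773, 0.755 to 0.792), 707 and 604 CPM in Gstm1/CD63 (0.854, 0.833 to 0.877), 1451 and 1249 CPM in Hba-a2 (0.861, 0.842 to 0.880) and 1163 and 1013 CPM in Car1 (0.871, 0.860 to 0.882). Without Hist1h2ap and Hist1h2ae the ratio was 0.736 in Pf4, 0.848 in Ly86, 0.945 in CD34, 0.985 in Gstm1/CD63, 1.00 in Car1 and 1.05 in Hba-a2. The pair thus made up all of the difference in Car1 and Hba-a2 and part of it in Pf4, Ly86 and CD34. In Gstm1/CD63 the interval without the pair, 0.955 to 1.02, held 1, and in CD34, at 0.920 to 0.972, it lay below 1.

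**Figure D3:**
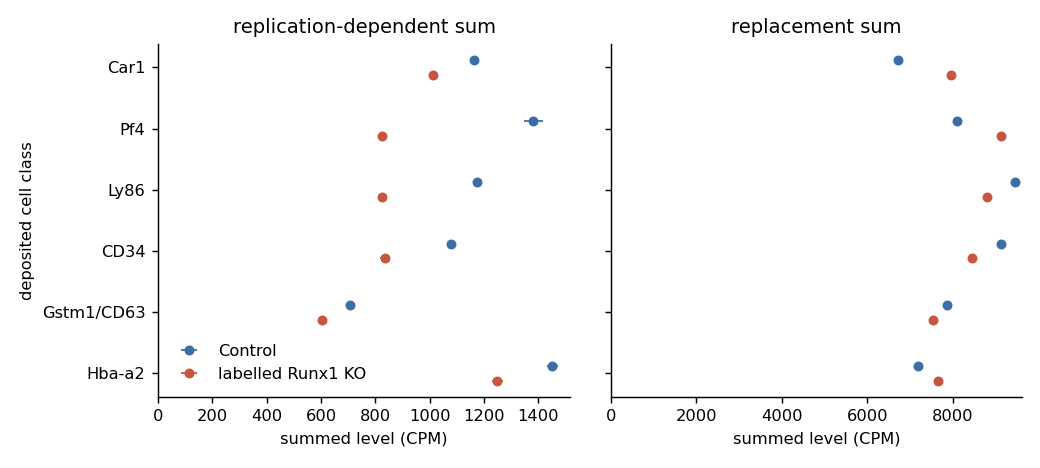
Summed level in CPM of the replication-dependent (left) and replacement (right) histone genes in the 6 compared classes, axes from 0, with 95% counting intervals. The replication-dependent sum is lower in the library labelled Runx1 KO (red) than in Control (blue) in every class, and the replacement sum is higher in Car1, Pf4 and Hba-a2 and lower in the other 3.

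The replacement sum was at 6710 and 7948 CPM in Car1 (1.18), 8088 and 9128 CPM in Pf4 (1.13) and 7183 and 7651 CPM in Hba-a2 (1.07). It was at 9452 and 8788 CPM in Ly86 (0.930), 9129 and 8436 CPM in CD34 (0.924) and 7862 and 7529 CPM in Gstm1/CD63 (0.958). The latter 3 are the classes in which H2afy was high, and without H2afy the ratio there was 1.02, 1.06 and 0.994.

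Counts past 1.5-fold by class were set beside the share of all measured genes past it. In Car1, which carries an erythroid carbonic anhydrase name, 0 of 8 measured replication-dependent members were higher and 2 lower (Hist1h2ap and Hist1h2ae), and 1 of 9 replacement members, H1f0, was higher and 0 lower; 3.67% of 4714 genes were higher and 1.95% lower. In Pf4, 0 of 10 and 4 of 10 (also Hist1h1b and Hist1h4d), with H1f0 higher and 0 lower of 9 replacement members, stood against 7.15% of 4967 genes higher and 3.38% lower. In Ly86, 0 and 2 of 8, with H1f0 higher of 8 replacement members, stood against 2.19% of 4285 genes and 0.817%. In CD34, 0 and 2 of 8, with H1f0 higher and H2afy lower of 9, stood against 2.85% of 4663 genes and 1.37%. In Gstm1/CD63, 0 and 2 of 6, with H1f0 higher and H1fx lower of 9, stood against 1.38% of 4145 genes and 0.7%. In Hba-a2, 0 and 1 of 9 (Hist1h2ap), with 0 of 8 replacement members either way, stood against 1.8% of 4397 genes and 0.751%. The classes differed in other markers too: erythroid markers (8 genes) summed to 3548 CPM in Control Car1 and 1113 CPM in Car1 labelled Runx1 KO, and 7722 and 5251 CPM in Hba-a2. Their part in the histone differences was not tested.

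**Figure D4:**
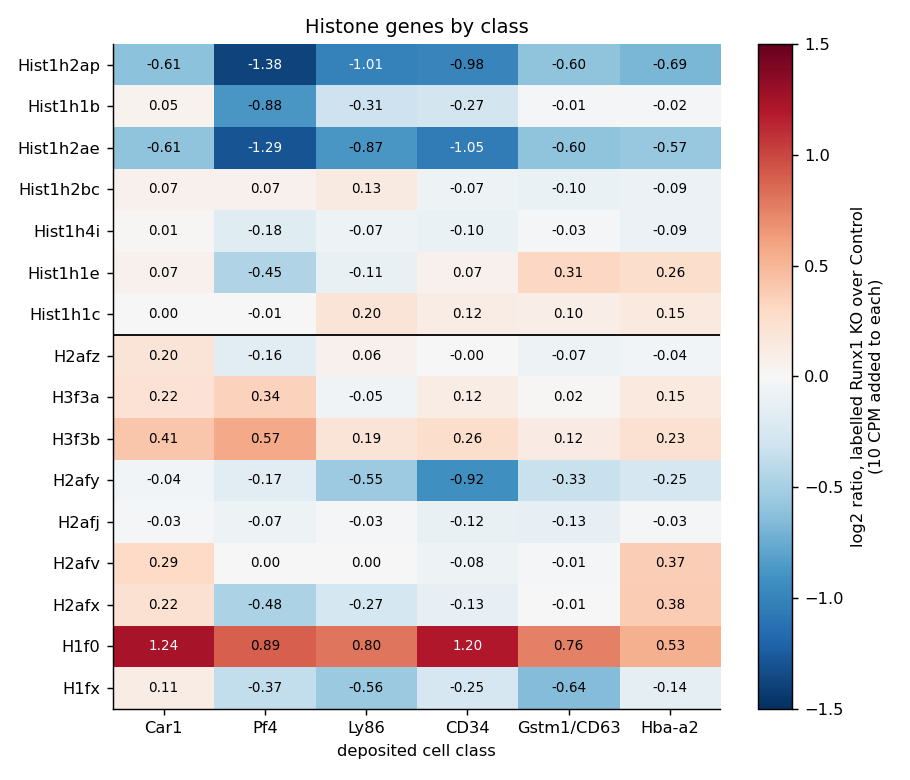
Log2 ratio of the library labelled Runx1 KO over Control, after adding 10 CPM to each, for the 16 histone genes measured over all cells (rows, replication-dependent above the line) in the 6 compared classes (columns); blue is lower and red higher. The rows of Hist1h2ap and Hist1h2ae are blue and the row of H1f0 red throughout, from -1.38 for Hist1h2ap in Pf4 to 1.24 for H1f0 in Car1.

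Classes with fewer than 200 cells in a library are given as values. The replication-dependent sum was at 581 and 428 CPM in Fcnb (180 and 318 cells), 906 and 654 CPM in Gstm1/Ly86 (306 and 137 cells), 1128 and 1087 CPM in Unannotated (143 and 175 cells) and 1348 and 800 CPM in Ltf (50 and 221 cells). Among these, H1f0 was at 13.2 and 28.6 CPM in Fcnb, 18.0 and 42.7 CPM in Gstm1/Ly86, 50.4 and 263 CPM in Unannotated and 15.9 and 22.3 CPM in Ltf. Hist1h2ap was at 124 and 62.3 CPM in Fcnb, 244 and 123 CPM in Gstm1/Ly86, 175 and 84.7 CPM in Unannotated and 600 and 245 CPM in Ltf. Both genes stood on the same side as in the compared classes, though the H1f0 interval in Ltf held 1, and the megakaryocyte markers were at 149 and 1270 CPM in Unannotated. The 21 Control cells of Vpreb1, a pre-B cell gene name, had the highest replication-dependent sum of any Control class, at 3929 CPM, of which Hist1h2ap made 1199 CPM.

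From Car1 to Hba-a2, the class named for an alpha-globin gene, the replication-dependent sum was 1.25 times as high in Control and 1.23 times in the library labelled Runx1 KO. Members were counted where both libraries passed 1.5-fold the same way. Of 10 measured replication-dependent members, 1, Hist1h1b, was higher (ratios 1.79 and 1.70) and 0 lower; of 9 replacement members 0 were higher and 2 lower, beside 7.53% of 4611 genes higher and 9.5% lower. The lower members were H1fx, at 60.9 CPM in Car1 and 8.44 CPM in Hba-a2 of Control (0.139) and at 66.7 and 6.79 CPM in the other library (0.102), and H2afy (0.488 and 0.418). H1f0 was lower as well, by ratios of 0.613 and 0.369. H2afz was higher, by 1.43 and 1.21. H1f0 did not pass 1.5-fold in Control after adding 10 CPM (log2 ratio -0.549). With so few members, the counts past 1.5-fold cannot be set apart from the shares over all genes.

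From Gstm1/CD63 to Ltf, the class named for lactoferrin of late neutrophils, the replication-dependent sum was 1.91 times as high in Control and 1.32 times in the library labelled Runx1 KO. Of 7 measured replication-dependent members 2 were higher in both libraries, Hist1h2ap (3.15 and 2.01) and Hist1h2ae (2.53 and 1.69), and 0 lower; of 7 replacement members 0 were higher and 1 lower, H2afy (0.408 and 0.182), beside 12.2% of 4242 genes higher and 46.2% lower. The G2/M list was higher in Ltf too, at 1139 and 2867 CPM in Control and 1380.3 and 2219 CPM in the other library, and the S phase list lower, at 2810 and 1429 CPM and 2570.2 and 1047 CPM; their part in the histone difference was not tested. H2afy was at 575 CPM in Ltf of Control and 204 CPM in Ltf of the library labelled Runx1 KO. Late neutrophil markers took 362782 and 361208 CPM in Ltf, and a CPM is a share of the total, so these genes lower the CPM of all others there. Hist1h2bc was at 8.70 CPM (6 UMIs) in Control Ltf and 67.8 CPM in Ltf of the other library, against 70.6 and 65.0 CPM in Gstm1/CD63.

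The cell cycle was described with lists of 30 S phase and 26 G2/M genes that hold no histone member. Within each library and compared class, thinned cells were ordered by their UMIs from a list, split in 3 by rank, and the top group set against the bottom group, with 1801 cells each in Control and 2253 in the library labelled Runx1 KO. Against the S phase list the replication-dependent sum pooled over the 6 classes was slightly higher in the top group: 932 and 1137 CPM in Control (1.22, 1.18 to 1.26) and 707 and 916 CPM in the other library (1.30, 1.26 to 1.33). The direction depended on the class. The ratio was above 1 in both libraries in Car1 (1.39 and 1.45), Gstm1/CD63 (1.38 and 1.46), Hba-a2 (1.35 and 2.10) and Ly86 (1.17 and 1.34). In Pf4 it was 0.839 (0.738 to 0.954) in Control and 0.994 in the other library, and in CD34 0.976 and 0.928, these 3 with intervals holding 1. Members went opposite ways. Of 8 measured replication-dependent members 3 were at least 1.5-fold higher in both libraries and 2 lower, beside 5.62% of 4486 genes higher and 1.83% lower, and of 9 replacement members 0 passed either way. The higher members were Hist1h1b (2.94 and 4.46), Hist1h2ap (2.58 and 4.08) and Hist1h2ae (2.02 and 3.03). The lower members were Hist1h2bc, at 166 CPM in the bottom and 25.3 CPM in the top group of Control (0.153) and at 187 and 23.5 CPM in the other library (0.126), and Hist1h1c (0.336 and 0.344). Some members under the level were also lower in the top group, Hist3h2a (0.266 and 0.285) and Hist1h2ac (0.373 and 0.483). H2afz was at 1.48 and 1.66, and H1f0 at 0.641 and 0.626.

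Against the G2/M list the replication-dependent sum was 548 CPM in the bottom and 1793 CPM in the top group of Control (3.27, 3.17 to 3.38) and 400.4 and 1585 CPM in the library labelled Runx1 KO (3.96, 3.83 to 4.09). Every class had a higher top group, by different amounts. The ratio was 1.38 and 1.91 in Hba-a2, 3.03 and 4.83 in Car1, 3.28 and 3.94 in CD34, 3.68 and 3.56 in Gstm1/CD63, 4.46 and 3.13 in Ly86 and 5.0 and 3.61 in Pf4. Of 10 measured replication-dependent members 7 were at least 1.5-fold higher in both libraries and 0 lower, and of 9 replacement members 4 were higher (H2afx, H2afz, H2afv and H1fx) and 0 lower, beside 3.93% of 4427 genes higher and 0.316% lower. Hist1h2ap was at 49.9 and 548 CPM in Control (11.0, 9.97 to 12.1) and at 19.8 and 336 CPM in the other library (17.0, 14.8 to 19.5). Hist1h1b was 7.64 and 10.9 times as high and Hist1h2ae 7.22 and 11.0 times. Hist1h2bc was at 0.753 in Control and 1.51 in the library labelled Runx1 KO, and at 0.240 and 0.457 between the top and bottom 10% of cells, so its direction turned in the latter library. Of replacement members H2afx was 3.15 and 3.50 times as high and H2afz 1.93 and 2.15 times, while H3f3a (0.994 and 1.01) and H3f3b (1.07 and 1.11) differed little between top and bottom groups.

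**Figure D5:**
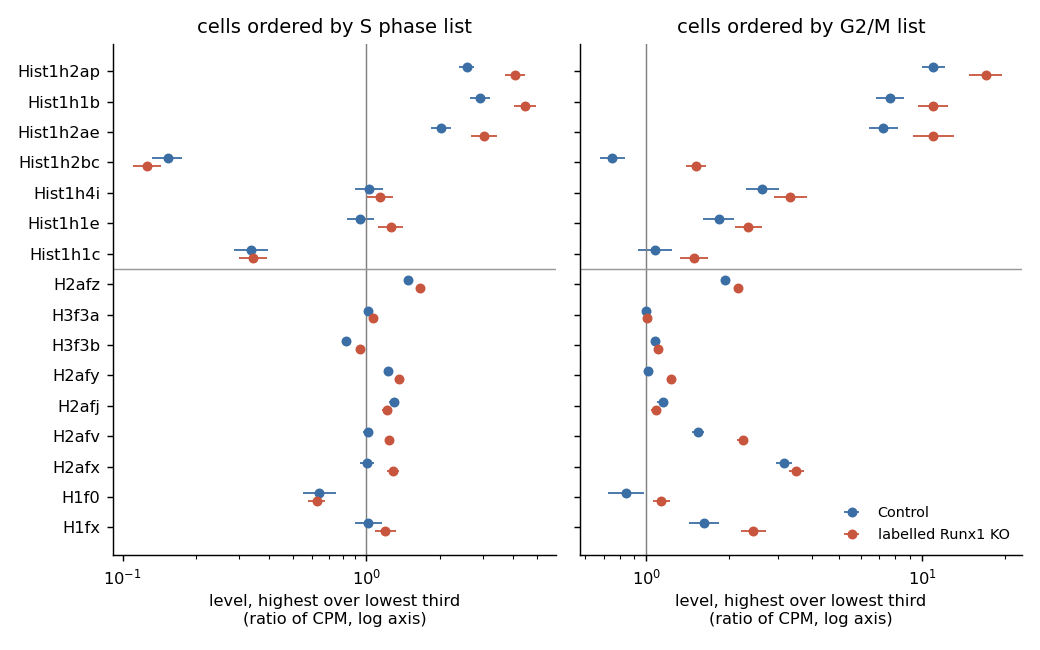
Ratio of the level in the top over the bottom group of cells, ordered by the S phase list (left) or the G2/M list (right), on log axes with 95% counting intervals; blue is Control and red the library labelled Runx1 KO, and the vertical line marks 1. Hist1h2ap, Hist1h1b and Hist1h2ae lie right of the line on both sides, Hist1h2bc and Hist1h1c left of it for S phase, and H3f3a close to it.

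In cells pooled over the compared classes, the difference between the libraries was present at both ends of the S phase order. In the top group Hist1h2ap was at 339 CPM in Control and 205 CPM in the library labelled Runx1 KO (0.603, 0.571 to 0.637), and in the bottom group at 132 and 50.2 CPM (0.381). Hist1h2ae gave 0.575 and 0.384, H1f0 3.05 and 3.12, H2afy 0.489 and 0.439 and H3f3b 1.44 and 1.27 in the top and bottom groups. The class mix differed: Pf4 gave 68 cells to each Control group and 566 to each group of the other library. Its part in these ratios was not tested. Without the split, equal class weights gave 2.16 for H1f0, 0.690 for H2afy, 1.25 for H3f3b, 0.532 for Hist1h2ap and 0.539 for Hist1h2ae. Cells were ranked within each library, so the groups were not matched between libraries for S phase UMIs. The cycle lists themselves differed less: of 30 S phase genes 29 were measured, 0 past 1.5-fold, and their median log2 ratio was -0.09, and 18 of 26 G2/M genes, 0 past 1.5-fold, with a median of 0.09. The S phase list summed to 3164 and 2443 CPM in Pf4 and the G2/M list to 2680 and 1993 CPM, the class in which replication-dependent histones were lowest relative to Control. Both lists were also lower in the classes next to it in that order: in Ly86 they were at 3244 and 2934 CPM and at 1998 and 1745 CPM, and in CD34 at 2996 and 2718 CPM and at 1732 and 1686 CPM. In Car1 they were at 3121 and 3095 CPM and at 1810 and 2268 CPM, in Gstm1/CD63 at 2810 and 2570.2 CPM and at 1139 and 1380.3 CPM, and in Hba-a2 at 4882 and 4945 CPM and at 2652 and 3471 CPM. Their part in the histone differences was not tested.

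Of 36 genes that supply, process or chaperone histones 29 were measured, and 0 were at least 1.5-fold higher or lower, with a median log2 ratio of 0.01. Furthest from equal were Hat1, which acetylates new H4 (115 and 95.3 CPM, 0.827), Rbbp7, its partner (184 and 154 CPM, 0.836), Ubn1, of the HIRA complex that deposits H3.3 (102 and 121 CPM, 1.19), and Npm1, an abundant nucleolar chaperone (2534 and 2153 CPM, 0.849). Slbp, which binds the stem-loop, was at 172 and 174 CPM (1.01). Slbp was picked after its value was seen. Of the S phase list, Ccne1, Dut, Hells and E2f8 had the log2 ratios furthest from 0, with ratios of 0.742, 0.804, 0.798 and 0.780. Of the G2/M list these were Mki67, Ube2c, Hmmr and Ccnb2, with ratios of 1.27, 1.22, 1.23 and 1.204. Over all cells, whose class mix differs, the median S phase gene was lower and the median G2/M gene higher in the library labelled Runx1 KO, while the G2/M sum was lower in 3 of the 6 classes. The named list genes differed by less than Hist1h2ap, Hist1h2ae, H2afy and H1f0, but these are the histone members picked for passing 1.5-fold. The other measured histone members stayed within 1.5-fold, as the list genes did.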

How the data were processed

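Counts are UMIs per gene and cell in the matrix deposited by the authors; Cell Ranger and the build mm10 are named in the submitters' processing notes, with no version or setting. Per the file headers, the deposited cell annotation adds each cell's total UMI count, the fraction of its UMIs that are mitochondrial and, as other entries, the library and class names. How the authors assigned classes is not stated in it. Library WT of that annotation was taken as Control. All deposited cells were used and no doublet caller was run. UMIs were summed by library and class with Python 3.11.15, numpy 2.4.6, scipy 1.17.1 and pandas 2.3.3. CPM carry exact Poisson intervals, ratios conditional binomial ones and shares of cells Clopper-Pearson ones, at 95%. Classes with 200 cells or more in each library were compared. Measured members were named with values, members of 100 UMIs or more by name, and up to 4 measured genes of each other list by size of log2 ratio; class values were set for the 4 members of each kind with most UMIs, and those of other members, such as H1f0, were added after their values were seen. The members and lists were chosen with earlier results of these data known. The counting of 1.5-fold differences was tested on simulated counts with Poisson error only. These held no spread between mice and no difference in class mix, so the test bears on counting error alone. Alternatives are given at the end.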

Additional observations from a re-analysis of the deposited data

How the results depend on the processing

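No paired analysis was possible because each group had 1 library. Log2 ratios of the library labelled Runx1 KO over Control are given, and no result reversed past the fold used. The replication-dependent sum over all cells, -0.35, was -0.309 as a mean of per-cell CPM, -0.375 with mitochondrial, ribosomal protein and globin genes left out of the total, -0.315 with cells thinned to 5000 UMIs, -0.375 with the compared classes weighted equally and -0.098 without Hist1h2ap and Hist1h2ae; this last setting, and equal class weights for single members, were chosen after seeing the data. The replacement sum, 0.02, was 0.026, -0.006, 0.041 and 0.031 under the first 4 of these settings and 0 without the 5% deepest cells, so its direction turned with the total used. At 2-fold, 0 replication-dependent and 0 replacement members were lower, and H1f0 remained higher. With the top and bottom 10% of cells in place of the split in 3, the log2 ratio of top over bottom group by the S phase list was 0.463 in Control and 0.582 in the library labelled Runx1 KO for the replication-dependent sum, and 0.264 and 0.339 for the replacement sum, all higher in the top group. Past 1.5-fold in both libraries this split added H2afz as higher and H1f0 as lower for S phase and Hist1h2bc as lower for G2/M, where Hist1h1d and Hist1h2ac were added as higher and Hist1h1a was no longer counted. The share of all genes was not counted at 2-fold or for the 10% split, so these calls have no background beside them. Of 128 alternatives over the 16 named members, 74 moved by less than counting error, 54 moved by more and 4 changed sign (Hist1h1e, H2afz and H1fx). H1f0 ran from 0.95 to 1.60, H2afy from -1.04 to -0.53, Hist1h2ap from -0.89 to -0.80 and Hist1h2ae from -0.89 to -0.81. The replication-dependent class sums stayed below 0 in 42 of 42 alternatives. The replacement sum in Hba-a2 was -0.032 as a mean of per-cell CPM. Depth limits the small classes, and 1 library per genotype limits all comparisons.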
